A study of Mus musculus with 16 samples.

Results

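The transcription factor ATF4 and 9 genes known as its targets or partners in the integrated stress response were followed in mouse neural stem cells: Atf4, Ddit3, Trib3, Chac1, Asns, Psat1, Phgdh, Psph, Slc7a11 and Gdf15. They were chosen by name, 10 of the 57132 genes counted, and all 10 passed the filter on low counts. Total RNA had been sequenced from neural stem cells kept under self-renewing conditions labelled GF, either treated with TAPIR (labelled gRNA) or untreated (labelled control). Each of 2 labelled batches held 3 gRNA and 3 control libraries: gRNA 4 to 6 and control 4 to 6 in batch 2, gRNA 1 to 3 and control 1 to 3 in batch 1. The numbers only name libraries. The labels give neither the meaning of TAPIR, the target of the guide, the mouse strain or age, nor what separates the batches, so no targeted gene was checked. Nothing says that the libraries came from separate cultures, so p-values measure the spread between these libraries, which may be technical. Ribosome footprints were also sequenced, 2 libraries with gRNA and 2 controls, but footprints of the 10 genes were not analysed here.

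The integrated stress response starts from kinases that phosphorylate the initiation factor eIF2 when amino acids run short, when proteins misfold in the endoplasmic reticulum, when double-stranded RNA is sensed or when haem is lacking. Translation in general then slows, while the Atf4 messenger, which carries upstream reading frames, is translated more, so that the level of the Atf4 messenger alone does not give the amount of the protein. ATF4 binds C/EBP-ATF response elements in genes for amino acid synthesis and uptake, redox balance and stress signalling, often together with C/EBP proteins. In proliferating cells such as neural stem cells, serine and one-carbon metabolism feeds nucleotide synthesis.

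The promoters of the 10 genes were searched for the 8 letters TGATGNAA, the core of a C/EBP-ATF response element, on both strands from 250 bases before to 50 bases after each annotated start. All 10 genes had a window in RefSeq (build GRCm38.p6, while the counts are on GRCm39), and 4 of 10 genes (40%) held a match, against 1219 of 27025 genes with a promoter window (4.51%). Slc7a11 held 2 matches, and 23 of those 27025 genes (0.0851%), Slc7a11 among them, held 2 or more. The matches in these 4 genes, Chac1, Trib3, Slc7a11 and Asns, are shown whatever the levels of the genes below. Of these 4 genes, Slc7a11 and Trib3 passed the test between batches below, and Chac1 and Asns did not. Of the other 6 genes, which held none, Atf4, Psph and Gdf15 passed, and Ddit3, Psat1 and Phgdh did not. Capitals mark the match, and each line reads 5′ to 3′ along the gene's strand.
Chac1: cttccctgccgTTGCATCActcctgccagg
Trib3: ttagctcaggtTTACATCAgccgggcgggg
Slc7a11: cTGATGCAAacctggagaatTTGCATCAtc
Asns: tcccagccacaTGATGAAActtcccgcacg
The Chac1 stretch lies at chr2:119351038-119351067 on the plus strand, with the match 193 bases before the start. The Trib3 stretch lies at chr2:152344028-152344057 on the minus strand, with the match 14 bases after the start. The Slc7a11 stretch lies at chr3:50443651-50443680 on the minus strand, with matches 66 and 47 bases before the start, facing each other on opposite strands. The Asns stretch lies at chr6:7693214-7693243 on the minus strand, 23 bases before the start. For the other 6 genes these letters were not in the window. A match describes the letters and is not evidence that a factor binds there.

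The libraries held 8414028 to 19454390 counts in genes, with a median of 14918917, and no 2 of them were identical (0 of 66 pairs). The labelled cell type was checked against its markers. Sox2 and Nes, both neural stem and progenitor markers, averaged 146 ± 24.0 and 557 ± 32.3 CPM (counts scaled to the size of the library) in batch 2 and 154 ± 23.5 and 600 ± 138 CPM in batch 1 (SD over 6 libraries). The 10 stem and progenitor markers summed to 1345 to 1704 CPM in batch 2 and 1456 to 2406 CPM in batch 1. Control 6 stood apart within batch 2. Its 4 detected oligodendrocyte lineage markers of 6 summed to 367 CPM, against 163 to 183 CPM in the other 5 libraries, and the 1 detected fibroblast marker of 6 reached 17.8 CPM, against 1.5 to 4.92 CPM. Libraries 6 of both groups stood apart in the astrocyte marker Gfap, with 40.8 CPM in gRNA 6 and 31.3 CPM in control 6, against 0.391 to 1.35 CPM in the other 4 libraries of batch 2. In these bulk libraries fewer cells of a type and less RNA per cell cannot be told apart.

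Atf4 itself did not separate gRNA from control libraries. In batch 2 it had 116, 124 and 134 CPM in gRNA libraries 4, 5 and 6, against 142, 122 and 112 CPM in control libraries 4, 5 and 6. In batch 1 it had 120, 90.2 and 95.6 CPM in gRNA libraries 1, 2 and 3, against 95.4, 120 and 94.3 CPM in control libraries 1, 2 and 3. The groups overlapped in both batches. Over both batches, with batch as a term, the log2 fold change of gRNA against control was -0.01 (SE 0.09, 95% interval -0.21 to 0.19), with an adjusted p of 0.9998 by edgeR's quasi-likelihood test with Benjamini-Hochberg adjustment over 17704 genes. As a ratio of levels, gRNA over control, that interval runs from 0.866 to 1.14.

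**Figure D1:**
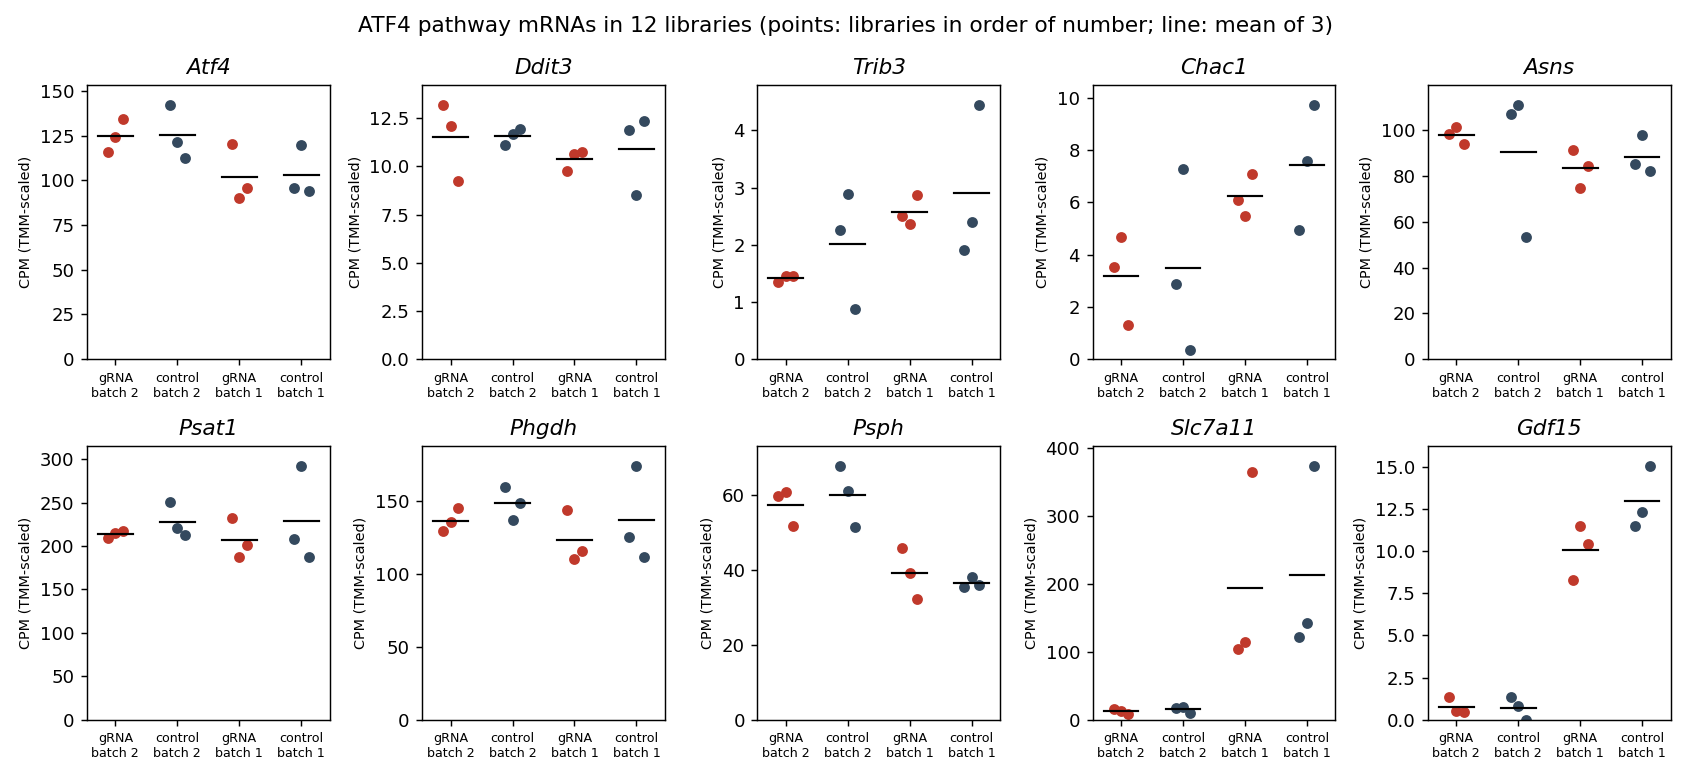
Level of each of the 10 genes in the 12 RNA-seq libraries, in CPM on a linear axis from 0, 1 panel per gene. In each panel batch 2 is left of batch 1 and gRNA left of control, points are libraries and lines are means of 3. Slc7a11 and Gdf15 lie far lower in batch 2 than in batch 1, while gRNA and control points overlap in every panel.

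The other 9 genes gave the same outcome: 0 of 10 were called between gRNA and control at an adjusted p under 0.05, beside 0 of all 17704 genes tested (0% called). None of the 10 had an unadjusted p under 0.05, with edgeR, DESeq2 or limma-voom alike, while 229 of the 17704 genes did (1.29%). DESeq2 and limma-voom also called 0 genes, with 216 and 232 at an unadjusted p under 0.05. With no true difference, a share of about 0.05 of the genes would fall there on average, so these shares were low. The reason was not tested, and the lack of calls does not show that gRNA had no effect. The 10 log2 fold changes ran from -0.35 to 0.02 with a median of -0.13, 2 above 0 and 8 below, and the median of all genes was -0.01. The 10 neural stem and progenitor markers also lay low in this contrast, 0 above 0 and 10 below with a median of -0.14 and 0 called. No gene of the 10 had gRNA and control libraries that did not overlap, over both batches (background 0.00565% higher and 0.0113% lower), within batch 2 (2.82% and 2.31%) or within batch 1 (2.84% and 2.18%).

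Among the regulators and early effectors, Ddit3, which encodes the death-promoting partner CHOP, had 13.2, 12.1 and 9.27 CPM in gRNA libraries 4 to 6 and 11.1, 11.7 and 11.9 CPM in control libraries 4 to 6 of batch 2. In batch 1 it had 9.78, 10.7 and 10.7 CPM in gRNA libraries and 11.9, 8.50 and 12.4 CPM in control libraries. The control values lay within or around the gRNA values, and the log2 fold change was -0.04 (95% interval -0.32 to 0.23). A second identifier that carries the Ddit3 symbol had 0 counts in every library and was left aside.

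Trib3, a pseudokinase that binds ATF4 and dampens it, gave the lowest fold change of the 10. It had 1.34, 1.46 and 1.45 CPM in gRNA libraries and 2.26, 2.90 and 0.874 CPM in control libraries of batch 2. It had 2.49, 2.36 and 2.87 CPM in gRNA libraries and 1.91, 2.39 and 4.44 CPM in control libraries of batch 1. Control values spread on both sides of the gRNA values in each batch. The log2 fold change was -0.35 (SE 0.27, 95% interval -0.94 to 0.23, unadjusted p 0.213, adjusted p 0.9998, edgeR). In batch 2 these levels rest on only 12 counts in the lowest library, so the depth limits what could be seen.

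Chac1, an enzyme that breaks down glutathione, varied most among the control libraries of batch 2. It had 3.52, 4.67 and 1.30 CPM in gRNA libraries 4, 5 and 6, against 2.86, 7.27 and 0.364 CPM in control libraries 4, 5 and 6, the last resting on 5 counts. In batch 1 it had 6.09, 5.5 and 7.10 CPM in gRNA libraries, against 4.95, 7.57 and 9.72 CPM in control libraries. The log2 fold change over both batches was -0.21, with a 95% interval of -1.16 to 0.74 (0.449 to 1.68 as a ratio of levels), so neither a moderate decrease nor a moderate increase could be told apart from no difference.

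Gdf15, a secreted stress cytokine, was close to the detection limit in batch 2. It had 1.34, 0.546 and 0.434 CPM in gRNA libraries 4 to 6, against 1.35, 0.801 and 0 CPM in control libraries 4 to 6. The 0 of control 6 allows up to 0.218 CPM, the level of 3 counts, a limit that covers counting error only. In batch 1 it had 8.28, 11.5 and 10.4 CPM in gRNA libraries, against 11.5, 12.3 and 15.0 CPM in control libraries. In batch 1 the groups overlapped narrowly, through gRNA 2 and control 1, and the log2 fold change within batch 1 was -0.35 (95% interval -0.78 to 0.07, unadjusted p 0.0947, edgeR), the smallest p of the 10 within that batch. Within batch 2 it was 0.14, with an interval of -1.87 to 2.16.

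Among the amino acid synthesis genes, Asns, which makes asparagine, had 98.6, 102 and 93.9 CPM in gRNA libraries and 107, 111 and 53.2 CPM in control libraries of batch 2. In batch 1 it had 91.4, 74.9 and 84.5 CPM in gRNA libraries and 85.4, 97.8 and 82.1 CPM in control libraries. All values of batch 2 but that of control 6 lay close together. The log2 fold change over both batches was 0.02 with control 6 and -0.11 without it, and neither passed the test.

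The serine pathway runs from Phgdh, its first enzyme, through Psat1 to the phosphatase Psph. Psat1 had 209, 215 and 217 CPM in gRNA libraries and 251, 221 and 213 CPM in control libraries of batch 2. It had 232, 187 and 201 CPM in gRNA libraries and 208, 292 and 187 CPM in control libraries of batch 1. Overlap was broad in batch 1 and limited to control 6 and the gRNA libraries in batch 2, and the log2 fold change was -0.12 (SE 0.10). Phgdh had 130, 135 and 145 CPM in gRNA libraries and 160, 137 and 149 CPM in control libraries of batch 2. It had 144, 110 and 116 CPM in gRNA libraries and 126, 174 and 111 CPM in control libraries of batch 1. The order of libraries in Phgdh was close to that in Psat1, and its log2 fold change was -0.14 (SE 0.10, unadjusted p 0.212). Psph had 59.6, 60.7 and 51.7 CPM in gRNA libraries and 67.7, 60.9 and 51.5 CPM in control libraries of batch 2. It had 45.8, 39.1 and 32.2 CPM in gRNA libraries and 35.5, 38.0 and 36.0 CPM in control libraries of batch 1. The groups of Psph overlapped in both batches, with a log2 fold change of 0.01 (SE 0.10).

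Slc7a11, the cystine importer that feeds glutathione synthesis, varied more between libraries than between groups. In batch 2 it had 15.7, 13 and 8.62 CPM in gRNA libraries 4 to 6 and 16.8, 19.0 and 10.3 CPM in control libraries 4 to 6. In batch 1 it had 104, 115 and 365 CPM in gRNA libraries 1 to 3 and 123, 143 and 374 CPM in control libraries 1 to 3. Library 3 of each group was high and the other 4 of batch 1 lay between 104 and 143 CPM. Libraries 3 also stood apart in other genes, picked after their values were seen. The one-carbon gene Aldh1l1 had 67.8 CPM in gRNA 3 and 72.2 CPM in control 3, against 137 to 162 CPM in the other 4. The neuronal marker Rbfox3 had 16.5 and 21.2 CPM, against 8.14 to 9.03 CPM. The log2 fold change of Slc7a11, gRNA against control, was -0.21, and its 95% interval was wide, from -0.998 to 0.587. That fit was not paired, so the spread between libraries 3 and the others of batch 1 entered the interval. The labels do not pair these libraries, and the numbers only name them, so no order of gRNA and control by number was read.

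**Figure D2:**
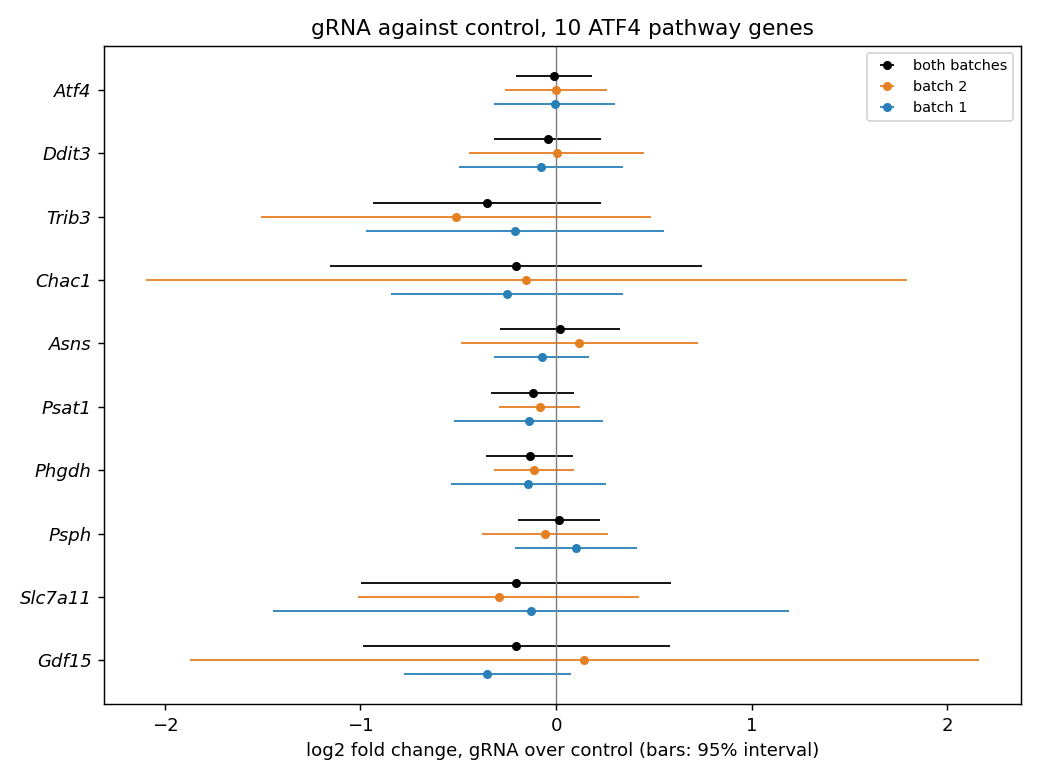
Log2 fold change of gRNA against control for each of the 10 genes with its 95% interval from edgeR, over both batches, within batch 2 and within batch 1. Every interval spans 0, and the widest belong to Chac1, Slc7a11 and, within batch 2, Gdf15.

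The effect of gRNA did not differ detectably between the batches. In an interaction fit, the differences of the log2 fold change, batch 2 minus batch 1, ran from -0.30 for Trib3 to 0.51 for Gdf15. No gene of the 10 and 0 of 18279 genes overall were called with edgeR (0%), where 0 of the 10 and 235 of all genes (1.29%) had an unadjusted p under 0.05. DESeq2 and limma-voom called 0 as well, with 180 and 212 genes at an unadjusted p under 0.05. The smallest unadjusted p of the 10 was 0.439, for Psph. Within single batches edgeR called 0 of 15647 genes in batch 2 (113 at an unadjusted p under 0.05, 0.722%) and 0 of 16988 in batch 1 (143, 0.842%). DESeq2 had 119 and 57 such genes and limma-voom 102 and 156, again with 0 called. These counts do not show that the cells respond alike, since the intervals of Chac1, Slc7a11 and Gdf15 span several-fold changes.

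The wider pathway showed the same absence of calls between gRNA and control over both batches. The 8 gene lists covered 109 genes tested, from the eIF2 kinases to tRNA synthetases, and edgeR called 0 of them. The medians of the lists ran from -0.11 for the 13 stress effectors to 0.09 for the 12 serine, glycine and one-carbon genes, beside -0.01 for all genes. In the list of sensors and eIF2 genes, Eif2d, an initiation factor that works without eIF2, had a log2 fold change of 0.12. The kinase PERK (Eif2ak3) had 0.08. Among the stress effectors, Ddit4, an inhibitor of mTORC1, had the smallest p of the 8 lists, with a log2 fold change of -0.31 (unadjusted p 0.0191, adjusted p 0.9998, edgeR). Leaving out control 6, in which Ddit4 was highest of all 12 libraries at 137 CPM, brought it to -0.20. Sesn2, another mTORC1 inhibitor, had -0.17. In one-carbon metabolism the mitochondrial folate carrier Slc25a32 had 0.17 and the serine and alanine transporter Slc1a4 -0.16. Pck2, which makes phosphoenolpyruvate in mitochondria, had -0.14, the glutamine transporter Slc38a1 -0.11, the seryl-tRNA synthetase Sars -0.08 and the AP-1 factor Fosl1 -0.40. The secretory pathway genes Creld2 and Sdf2l1 had 0.20 and 0.19, and none of these passed the test. Sox2 and Nes had -0.16 and -0.11.

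The batches differed far more than the groups within them. Batch 2 against batch 1, with treatment as a term, gave 10884 of 17704 genes called by edgeR (61.5%; 28.4% higher and 33.1% lower), and 11482 at an unadjusted p under 0.05 (64.9%). Of the 10 genes, 5 were called (50%), 2 higher and 3 lower, which is not above that background. The median log2 fold change of the 10 was 0.07, beside -0.03 for all genes. The share of reads in no gene was 8.83% to 12.7% in batch 2 and 18.95% to 25.07% in batch 1, and markers of other cell types also moved. The 4 oligodendrocyte lineage markers tested summed to 163 to 367 CPM in batch 2 and 99.3 to 118.5 CPM in batch 1, with 3 called higher. The 6 neuronal markers tested summed to 615 to 773 CPM in batch 2 and 646 to 957 CPM in batch 1, with 1 called higher and 4 lower. Map2 made up most of these sums, with means of 659 and 720 CPM, and was not called (log2 fold change -0.13). The 4 called lower changed far more: Syt1 (-4.47), Rbfox3 (-3.64), Snap25 (-5.03) and Dcx (-4.15). Syt1 averaged 0.84 CPM in batch 2 and 19.2 CPM in batch 1. Tubb3 was the 1 called higher (2.34). The 6 astrocyte markers summed to 614 to 860 CPM in batch 2 and 712 to 1266 CPM in batch 1, with 2 called higher and 3 lower, and of the 10 stem and progenitor markers 1 was called higher and 6 lower. Microglial markers summed to at most 2.26 CPM in batch 2 and 6.39 CPM in batch 1, with 2 of 5 tested. The part of these in the values below was not tested, and whatever separates the batches cannot be told apart from them.

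**Figure D3:**
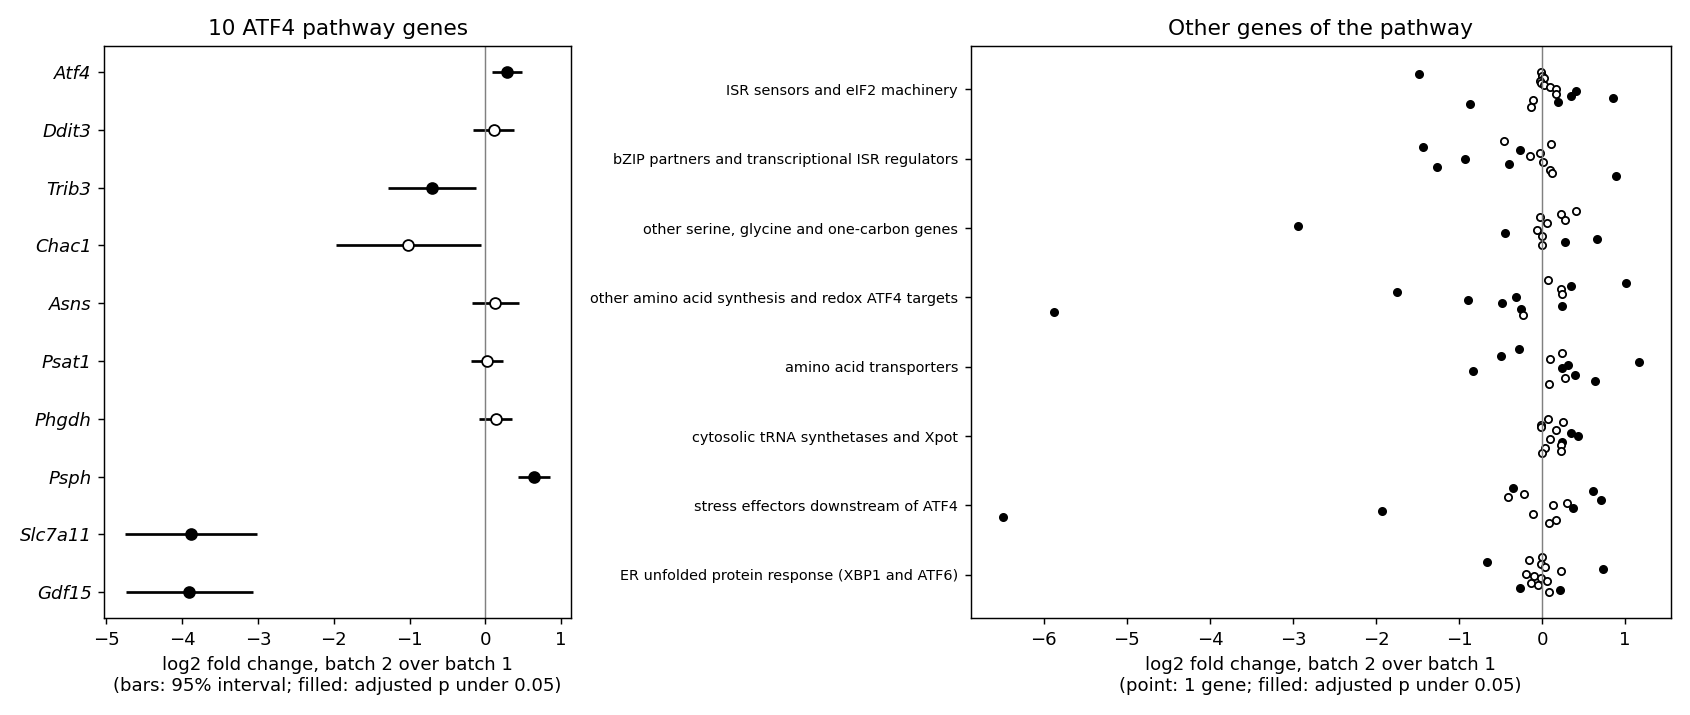
Log2 fold change of batch 2 against batch 1 from edgeR for the 10 genes with 95% intervals (left) and for 109 other genes in 8 lists, 1 point per gene (right). Filled points are genes called at an adjusted p under 0.05. Slc7a11 and Gdf15 lie near -3.9, Psph at 0.64 and Atf4 at 0.29.

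Slc7a11 and Gdf15 had the largest differences of the 10 between batches. Slc7a11 ran from 8.62 to 19.0 CPM with a median of 14.4 in batch 2, and from 104 to 374 CPM with a median of 133 in batch 1. It was 14.7-fold lower in batch 2, a log2 fold change of -3.88 (SE 0.40, adjusted p 2.58e-06, edgeR). Without library 3 of both groups, the 2 libraries in which it was highest, the log2 fold change was -3.08, a smaller difference that still passed (adjusted p 2.01e-08). Gdf15 ran from 0 to 1.35 CPM with a median of 0.673 in batch 2, and from 8.28 to 15.0 CPM with a median of 11.5 in batch 1. It was 15.0-fold lower in batch 2, a log2 fold change of -3.90 (SE 0.39, adjusted p 7.77e-07, edgeR), and the batches did not overlap for either gene, as held for 24.3% of all genes in that direction.

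Psph and Atf4 were higher in batch 2. Psph ran from 51.5 to 67.7 CPM with a median of 60.2 in batch 2, and from 32.2 to 45.8 CPM with a median of 36.99 in batch 1. Every batch 2 library was above every batch 1 library, as held for 17.3% of all genes, and the level was 1.56-fold higher (log2 fold change 0.64, SE 0.10, adjusted p 5.20e-05, edgeR). Atf4 ran from 112 to 142 CPM with a median of 123 in batch 2, and from 90.2 to 120 CPM with a median of 95.5 in batch 1. The batches overlapped through gRNA 1 and control 2, and Atf4 was 1.22-fold higher (log2 fold change 0.29, SE 0.09, adjusted p 0.0139, edgeR). With the control libraries alone, 3 against 3, the value of Atf4 was 0.30 but did not pass (adjusted p 0.119).

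Trib3 was lower in batch 2, at a mean of 1.71 ± 0.73 CPM against 2.74 ± 0.89 CPM in batch 1 (SD, n = 6 each), with overlap. Its log2 fold change of -0.71 (SE 0.27, adjusted p 0.0354, edgeR) was a borderline call. It was lost when any 1 of gRNA 1, 2, 3, 4, 5 or 6, control 3 or control 6 was left out, with adjusted p between 0.0516 and 0.162, the highest without control 3, where the value was -0.48. It was also lost with library size alone as the scaling (adjusted p 0.0647), without library 6 of both groups (0.0877), without library 3 of both groups (0.289) and with control libraries alone (0.413). Chac1, with 3.33 ± 2.47 CPM in batch 2 and 6.82 ± 1.72 CPM in batch 1, had -1.01 and missed the threshold (adjusted p 0.0621), but passed with DESeq2 (0.0384), with limma-voom (0.0206), without control 5 (-1.45, adjusted p 0.0109) and without control 6 (-0.76, adjusted p 0.0421).

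The remaining 4 genes did not pass. Asns had a log2 fold change of 0.13 (adjusted p 0.442, edgeR), and passed without control 6 (0.27, adjusted p 0.00273), without library 6 of both groups (0.29, adjusted p 0.00214) and with the gRNA libraries alone (0.26, adjusted p 0.0412). Phgdh had 0.13 (adjusted p 0.277), and passed without control 2 (0.25, adjusted p 0.0112) and with library size alone (0.22, adjusted p 0.0312). Psat1 had 0.02 and Ddit3 0.11, and neither passed under any of the alternatives tried. Of the 3 serine pathway genes, Psph alone was called between batches, and the difference between it and its neighbours was not tested.

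Other genes of the response were called between batches in both directions, beside 61.5% of all genes called (28.4% higher and 33.1% lower). Of 17 sensors and eIF2 genes, 4 were higher and 2 lower (35.3% called). Eif2ak2, the kinase PKR that senses double-stranded RNA, averaged 52.8 ± 12.4 CPM in batch 2 and 147 ± 12.2 CPM in batch 1 (log2 fold change -1.48, adjusted p 2.11e-07, edgeR). The kinases HRI (Eif2ak1), PERK (Eif2ak3) and GCN2 (Eif2ak4), which sense haem, misfolded proteins and uncharged tRNA, had -0.01, 0.0012 and 0.02, none of which passed, with standard errors of 0.06, 0.08 and 0.07. Ppp1r15a, the inducible phosphatase subunit GADD34 that ends the response, was higher at 46.1 ± 9.33 CPM in batch 2 and 25.5 ± 4.75 CPM in batch 1 (0.85), while its constitutive counterpart Ppp1r15b had -0.11 and did not pass. Eif2d was lower (-0.86), and Eif2b3, a subunit of the eIF2 exchange factor, higher (0.40).

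Of 13 bZIP partners and regulators, 1 was higher and 5 lower (46.2% called, beside 61.5% of all genes). Cebpb, a C/EBP partner of ATF4, averaged 4.63 ± 0.99 CPM in batch 2 and 12.5 ± 3.79 CPM in batch 1 (-1.43). Maf and Fosl1 were also lower (-0.93 and -1.26) and the membrane-bound factor Creb3l2 higher (0.89), with 338 CPM in gRNA 6 against 171 to 196 CPM in the other 5 libraries of batch 2. In serine, glycine and one-carbon metabolism, 2 of 12 were higher and 2 lower (33.3% called). Aldh1l1, which oxidises formyl-tetrahydrofolate and is widely used as an astrocyte marker, averaged 16.2 ± 11.7 CPM in batch 2 and 123 ± 42.2 CPM in batch 1 (-2.94). Within batch 2 it had 26.0 CPM in gRNA 6 and 35.5 CPM in control 6, against 7.46 to 10.4 CPM in the other 4 libraries. The transporter Slc1a4 was lower (-0.45) and Gcat, which completes the breakdown of threonine to glycine, higher (0.66).

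Among 13 amino acid synthesis and redox genes, 3 were higher and 6 lower (69.2% called, beside 61.5% of all genes). Nqo1, a quinone reductase and classic NRF2 target, averaged 0.25 ± 0.11 CPM in batch 2 and 15.1 ± 3.81 CPM in batch 1 (-5.87, adjusted p 3.19e-10, edgeR). Gclm, the modifier subunit of the enzyme that starts glutathione synthesis, was lower (-0.90), as was Cbs, which turns homocysteine into cystathionine (-1.75). Pycr1, which makes proline, was higher (1.01). Of 12 amino acid transporters, 5 were higher and 3 lower (66.7% called). The glutamine transporter Slc1a5 had 1.16, Slc7a6 0.64 and the glycine transporter Slc6a9 -0.83. Of 13 tRNA synthetase and export genes, 3 were higher and 0 lower (23.1% called). Among them were the methionyl and leucyl enzymes Mars (0.43) and Lars (0.35).

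Of 13 stress effectors, 3 were higher and 3 lower (46.2% called, beside 61.5% of all genes). Tnfrsf10b, the death receptor DR5, averaged 0.57 ± 0.21 CPM in batch 2 and 53.6 ± 6.52 CPM in batch 1 (-6.50, adjusted p 1.72e-12, edgeR). Bbc3, which encodes the death-promoting protein PUMA, was lower (-1.93), and Vegfa and Ddit4 were higher (0.71 and 0.62). Of 16 genes of the unfolded protein response in the endoplasmic reticulum, 2 were higher and 2 lower (25% called). Sdf2l1 had 0.73 and Dnajb9 -0.67. Beside the background of 61.5% called, the lists had 23.1% to 69.2% of their genes called. With the control libraries alone, the calls of Eif2b3, Gcat, Slc1a4, Pycr1, Mars and Lars did not pass. Tnfrsf10b and Bbc3 are also known targets of p53, and Nqo1, Gclm and Slc7a11 of NRF2. The part of either factor in these values was not tested.

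Within a batch, the 10 genes did not vary as 1 unit. Deviations of log2 CPM from the mean of the batch were correlated over the 12 libraries as a description, with depth and composition of the libraries shared between genes. Psat1 and Phgdh varied together (Pearson r 0.96, Spearman rho 0.90), and still did without the 2 libraries farthest from the median of Psat1 (r 0.89). Atf4 went with Psat1 (0.84) and Phgdh (0.83), less with Psph and Asns (0.54 each), and in the opposite sense to Ddit3 (-0.74). Chac1 and Asns had an r of 0.85, and Asns and Gdf15 of 0.83. Without control 6 these were 0.56 and 0.37.

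Atf4, Psat1 and Phgdh were highest in batch 1 in gRNA 1 and control 2. Those were also the libraries with the fewest counts, 10515276 and 8414028, and with the smallest share of reads in no gene in batch 1, 20.6% and 18.95%, and the part of these in the result was not tested. Over the 10760 genes with a mean of at least 10 CPM, the 5 most like Atf4 by this measure were Psmd13, Tcea1, 1110004F10Rik, Eif2s2 and Ola1, with r of 0.97 for all 5. Psmd13 is a proteasome subunit, Tcea1 a transcription elongation factor and Eif2s2 the beta subunit of eIF2. On this measure Psat1 had rank 820, Phgdh rank 953 and Ddit3 rank 10544.

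**Figure D4:**
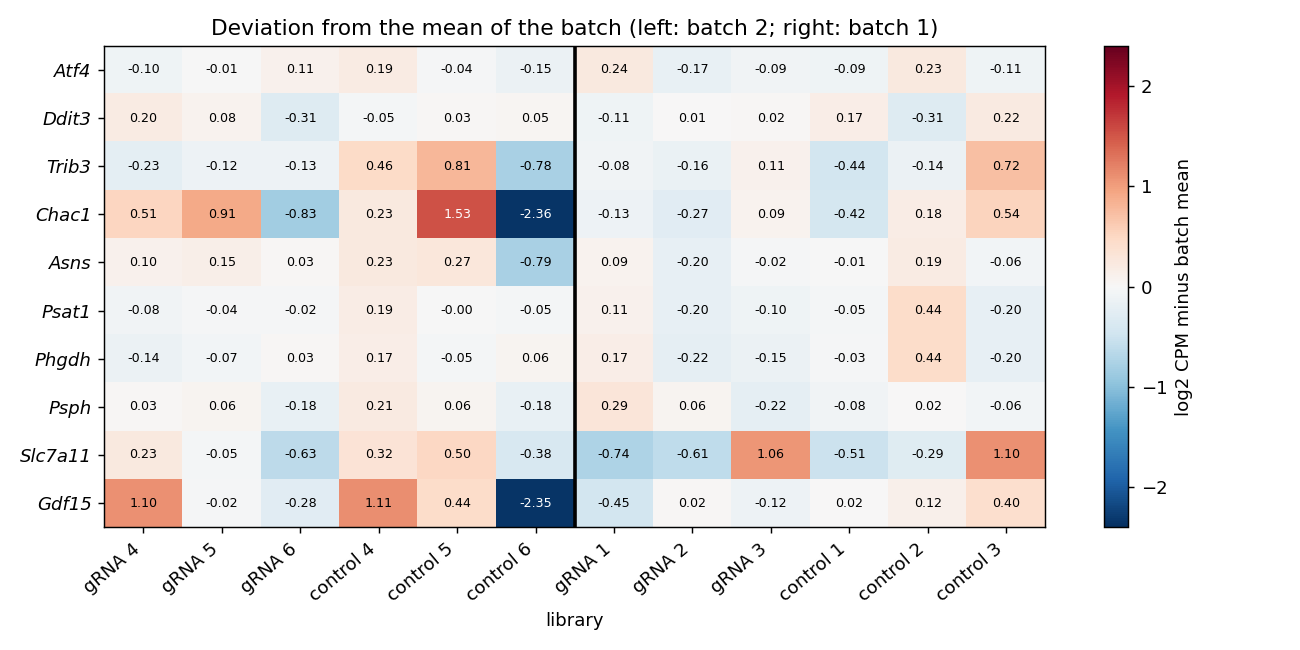
Deviation of log2 CPM from the mean of the batch, for each of the 10 genes (rows) in each of the 12 libraries (columns), with batch 2 left of batch 1. Control 6 holds the lowest values, -2.36 for Chac1 and -2.35 for Gdf15, and library 3 of both groups the high Slc7a11 values of batch 1, 1.06 in gRNA 3 and 1.095 in control 3.

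Some libraries lay at the end of the range in many of the 10 genes. Control 6 was lowest of batch 2 in 6 of the 10 genes and highest in 0, while over all genes it was lowest in 28.2% and highest in 33.8%, at the ends of the range more often than any other library of batch 2. Its Psat1 and Phgdh values lay inside the range of the other 5 libraries. Control 4 was highest of batch 2 in 5 of the 10 genes, beside 13.7% of all genes. In batch 1, control 3 was highest in 5 of the 10, beside 19.3% of all genes, and gRNA 2 lowest in 4, beside 12.4%.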

How the data were processed

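RNA-seq was measured in 12 libraries of total RNA, prepared as stranded libraries depleted of ribosomal RNA per the labels' protocols. The deposited values are raw counts for each Ensembl gene, made by the authors on GRCm39 with HTSeq, SAMtools, STAR and Trimmomatic. The submitters' processing notes list these tools without an order. Of these tools the notes of the series give a version for STAR alone (2.7.10b), which may refer to the footprint libraries. No source used here gives annotation or strand setting, so reads of overlapping or antisense genes cannot be told apart. Summary lines of the counting were left out of library sizes. Symbols matched 51880 of 57132 identifiers (90.8%).

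Tests on the counts used edgeR 4.0.16 (R 4.3.3; filterByExpr with a minimum count of 10, TMM, robust quasi-likelihood test, Benjamini-Hochberg adjustment over all genes tested, threshold 0.05), with batch, or treatment for the contrast of batches, as a further term. Levels are CPM on TMM-scaled library sizes, without gene length, so they are not compared between genes. Log2 CPM, with a prior count of 2, served for deviations from batch means. DESeq2 1.42.0 and limma-voom (limma 3.58.1), other scalings and filters, and libraries left out were alternatives. The script was tested on simulated data.

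The 10 genes and the gene lists were chosen with earlier results of these data known. Named besides the 10 were genes of each list with the smallest p between gRNA and control, those called with the largest change between batches, the eIF2 kinases and phosphatase subunits, the 5 genes most like Atf4, Sox2 and Nes; not every gene the rule gave is described. Listed names without a match (14) included alternative spellings.

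The deposited table of footprint P-sites was not used: no source used here pairs its transcript identifiers with genes, and its 4 library names match no label. Promoter sequences are from RefSeq, build GRCm38.p6.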

Additional observations from a re-analysis of the deposited data

Results flagged for a closer look

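Within each group of 6 libraries, each gene's log2 CPM was set against the mean of its batch, and 3 values of the 10 genes lay far from the others of their group by Dixon's ratio of the gap to the range. Chance flags about 1 in 20 groups whose 6 values share a common spread, and 20 groups were screened. Here each group pooled libraries of both batches, and all 3 flagged values were in batch 2. Asns in control 6 deviated by -0.79, while the other 5 controls lay between -0.06 and 0.27. Gdf15 in control 6, where it had 0 counts, deviated by -2.35, while the other controls lay between 0.02 and 1.11. Gdf15 in gRNA 4, at 24 counts, deviated by 1.096, while the other gRNA libraries lay between -0.45 and 0.02. It deviated as much in control 4 (1.11), and the 0 of control 6 lowers the batch mean behind both values.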

How the results depend on the processing

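No call between gRNA and control was gained or lost for the 10 genes under any alternative. Some values near 0 changed sign. Over both batches these were Atf4 (0.0064 with the share of reads in no gene as a term, 0.022 with library size alone), Ddit3 (0.0097 without library 6 of both groups, 0.0050 without library 3 of both), Chac1 (0.021, limma-voom), Psph (-0.0020 with limma-voom, -0.0018 without a batch term) and Asns (-0.10 without library 6 of both). Within batch 2 they were Atf4 (-0.0087 with DESeq2 and with RLE factors, -0.00086 without a filter on low counts), Ddit3 (-0.0033, -0.0051 and, with limma-voom, -0.0050) and Chac1 (0.47, limma-voom).

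Leaving out 1 library at a time, values that changed sign over both batches ran from -0.068 to 0.037 for Atf4, -0.10 to 0.018 for Ddit3, -0.44 to 0.21 for Chac1, -0.11 to 0.084 for Asns, -0.050 to 0.066 for Psph and -0.62 to 0.14 for Slc7a11. Within batch 2 they ran from -0.088 to 0.099 for Atf4, -0.11 to 0.13 for Ddit3, -0.68 to 1.01 for Chac1, -0.16 to 0.31 for Asns, -0.17 to 0.037 for Psph and -0.53 to 0.89 for Gdf15. Within batch 1 they ran from -0.14 to 0.11 for Atf4, -0.22 to 0.018 for Ddit3, -0.46 to 0.29 for Trib3, -0.48 to 0.031 for Chac1, -0.14 to 0.0051 for Asns, -0.26 to 0.066 for Psat1, -0.27 to 0.061 for Phgdh, -0.025 to 0.22 for Psph and -0.97 to 0.57 for Slc7a11.

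Between batches, leaving out 1 library at a time gave 10525 to 12067 genes called and 4 to 6 of the 10, and the calls of Atf4 (0.25 to 0.36), Psph (0.59 to 0.70), Slc7a11 (-4.02 to -3.51) and Gdf15 (-4.22 to -3.63) held. Control libraries alone gave 6700 genes and 3 of the 10, from fewer samples. Psat1 changed sign without library 3 of both groups (-0.0069) and ran from -0.012 to 0.14 over single libraries. Eif2ak1 changed sign without a filter (0.035), without library 3 of both (0.056), with library size alone (0.069), with upper quartile factors (0.025) and in controls alone (0.029). Eif2ak3 did so with a CPM filter (-0.0035), with limma-voom (-0.0070) and without library 6 of both (-0.086). Over single libraries Eif2ak1 ran from -0.038 to 0.036, Eif2ak3 from -0.038 to 0.046 and Eif2ak4 from -0.0069 to 0.052. Without a filter, 1 gene was called within batch 1 and 42 for the difference between batches, none of the 10. The cause of these changes was not tested.

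Library size alone, upper quartile factors, the share of reads in no gene, the omission of library 3 of both groups and fits on 1 treatment were chosen after seeing the data. No paired analysis was possible because the RNA-seq labels carry no replicate numbers; the footprint alternatives (choice of transcript, footprint length, replicate pairing) were not run. Depth limits Gdf15, Chac1 and Trib3 most.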

Other observations

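Control 6 also differed in other genes of the response, which were picked after their values were seen. It was the lowest library of batch 2 in 60 of the 109 list genes (55%), beside 28.2% of all genes, and the highest in 21 of them (19.3%), beside 33.8% of all genes. Mthfd2, a mitochondrial one-carbon enzyme and ATF4 target, had 35.1 CPM in control 6, against 100.3 to 114 CPM in the other 5 libraries of batch 2. Slc1a5 had 35.6 CPM in control 6, against 80.6 to 84.8 CPM. Stc2, a secreted glycoprotein, had 5.32 CPM, against 17.2 to 26.9 CPM, and Pycr1 had 15.7 CPM, against 28.4 to 33.0 CPM. Not all genes of the response were low there. Ppp1r15a had 64.6 CPM in control 6, against 39.1 to 45.9 CPM, and Ddit4 137 CPM, against 68.9 to 102 CPM. The oligodendrocyte lineage and fibroblast markers were higher in the same library (367 and 17.8 CPM), and their part in these values was not tested.

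The letters TGATGNAA were also counted in the promoters of the other lists. They were in 5 of the 9 tRNA synthetase and export genes with a window (55.6%), 3 of 10 bZIP genes, 3 of 10 amino acid and redox genes, 3 of 12 stress effectors, 1 of 15 sensors and eIF2 genes and 1 of 9 serine and one-carbon genes. None of 8 amino acid transporters and none of 14 genes of the unfolded protein response held them, beside 4.51% of all genes with a window. No test of these shares was made.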
